A study of Drosophila melanogaster with 28 samples.

Results

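The nuclear-encoded genes of the mitochondrial respiratory chain were taken by name, as the fly genes whose symbol begins with ND-, UQCR or ATPsyn, or with COX and a number. The rule found 74 of 16862 fly genes listed. Of these, 58 encode the ordinary form of a subunit, here called single forms, and 16 are paralogs whose name ends in L, here called L forms. The single forms comprise 34 subunits of complex I, 6 of complex III, 7 of complex IV and 11 of ATP synthase, and the name rule found 0 assembly factors. The rule reads names and no measured value, although the single forms were chosen with earlier results of these data known.

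Complex I (NADH dehydrogenase), complex III (the cytochrome bc1 complex) and complex IV (cytochrome c oxidase) pass electrons to oxygen and pump protons across the inner mitochondrial membrane, and ATP synthase uses the returning protons to make ATP. Most subunits are encoded in the nucleus, translated in the cytosol and imported, whereas a few core subunits come from the mitochondrial genome. The fly egg inherits its mitochondria and a large store of these mRNAs from the mother, and in flies many of the subunits have a duplicate known for expression in the testis.

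The study used RIP-seq, in which RNA recovered with a protein is sequenced beside the RNA of the lysate, the input, to ask which mRNAs are bound by PABP, the cytoplasmic poly(A)-binding protein, and by ME31B, a DEAD-box helicase and repressor of maternal mRNA, during the maternal-to-zygotic transition. PABP was immunoprecipitated from w1118 embryos and ME31B, through a GFP antibody, from embryos of an eGFP-ME31B protein trap line, each at 0-1, 1-2, 2-3, 3-4 and 4-5 hr after egg laying. The png50 embryos carry what the study calls a weak hypomorphic allele of png. The study found the PNG kinase to be required, directly or indirectly, for the loss of ME31B and its partners. From png50 embryos there were inputs of the PABP series at 0-1 and 2-3 hr and an input and ME31B immunoprecipitate at 0-1 hr. All are labelled png50, and the design text gives the last pair the eGFP-me31B allele as well. From S2 cells, a macrophage-like line, there were an input and immunoprecipitate for PABP (untransfected cells) and for ME31B (cells transfected with eGFP-ME31B). The embryos were collected whole, and ME31B was measured only through its eGFP fusion, which the w1118 embryos do not carry. Every group is 1 library, 28 in all, so that no value below has a replicate check and no test was possible.

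FPKM are fragments per kilobase of transcript, scaled to the mapped reads of the library. Over the whole series, summed fly FPKM ranged from 125101 (w1118 1-2 hr input) to 1454770 (w1118 3-4 hr immunoprecipitate). The w1118 0-1 hr input, the base of every w1118 input change below, was next lowest at 302478. Both stood apart at the low end, as the library above them held 488116 (S2 ME31B immunoprecipitate). Depth estimated from the smallest steps of the values was 10.2 to 16.7 M reads per library, at which a median single form rested on an estimated 230 to 3302 reads. The maternal mRNA nos, 1 of 5 maternal markers, lay at 253 FPKM at 0-1 hr and 6.95 FPKM at 4-5 hr in w1118 inputs, and at 953 and 23.0 FPKM in eGFP-ME31B inputs. In FPKM, the sum over all 5 (bcd, osk, nos, gcl and CycB) fell less. It went from 746 to 415 FPKM in w1118 and from 2758 to 867 FPKM in eGFP-ME31B inputs. Between the same inputs, summed fly FPKM rose from 302478 to 1160520 in w1118 and from 899038 to 1089180 in eGFP-ME31B embryos. The falls in FPKM are therefore not on 1 scale between ages or strains. Muscle markers, the 3 genes Mhc, up and Act57B, separated the inputs of the strains from 2-3 hr on. Their summed levels at 2-3, 3-4 and 4-5 hr were 24.5, 62.5 and 163 FPKM in w1118 embryos. In eGFP-ME31B embryos they were 1.72, 8.13 and 26.0 FPKM. Of 5 hemocyte markers, 2 (srp and crq) reached 0.5 FPKM in both S2 inputs, while the defining markers Hml, NimC1 and Sr-CI did not.

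The single forms were among the steadily present mRNAs of every library. Their median level lay between 26.0 FPKM (w1118, 1-2 hr) and 253 FPKM (eGFP-ME31B, 2-3 hr) over the 10 embryo inputs of both strains, and 56 to 58 of 58 reached 0.5 FPKM in each of the 28 libraries. Together they made up 1.59% to 2.15% of the summed fly FPKM of an embryo input, 1.13% and 1.29% of the S2 inputs, and the same order of genes held across sources. The rank correlation of the 58 levels was 0.89 between the w1118 and eGFP-ME31B inputs at 0-1 hr and 0.86 between the w1118 input at 0-1 hr and the S2 input, as a description over 58 genes from libraries that share none.

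Within complex I the highest levels belonged to ND-MLRQ, whose mammalian counterpart is found with complex IV, and to the accessory subunit ND-B14.5B, with means of 1459 and 384 FPKM over the 10 embryo inputs. In complex III they belonged to UQCR-11 and UQCR-14, small accessory subunits, with means of 617 and 563 FPKM. In complex IV they belonged to COX7C and COX8, small membrane subunits, with means of 869 and 733 FPKM. In ATP synthase they belonged to ATPsynC, the proton-carrying c-ring subunit, and ATPsynG, a membrane subunit, with means of 1090 and 1064 FPKM. The catalytic subunit ATPsynbeta came next in ATP synthase (702 FPKM), and 2 complex I genes lay below the others, ND-AGGG at 5.46 FPKM at most and ND-B8 at 2.74 FPKM at most, with ND-B8 listed at 0 in 15 of 28 libraries. ATPsynC and ND-MLRQ overlap other annotated genes on the same strand (ATPsynC the RNA of RNase P), as do 9 single forms in all, so that part of their signal may belong to the neighbour.

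**Figure D1:**
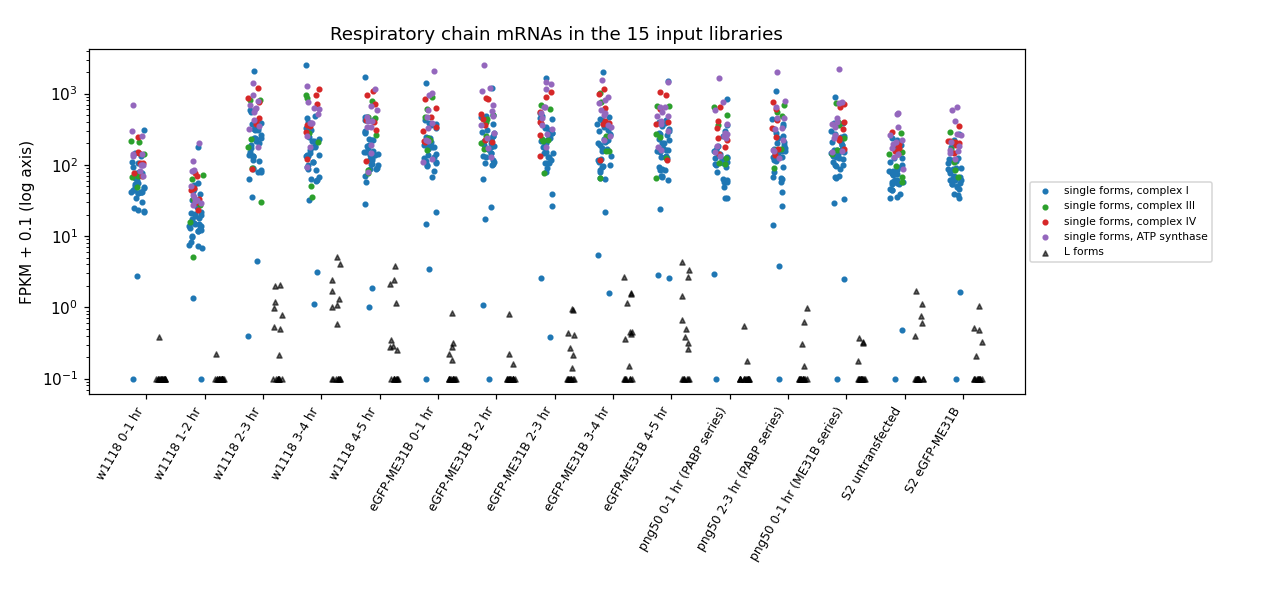
Levels of the 74 respiratory chain mRNAs in the 15 input libraries, as FPKM + 0.1 on a log axis, 1 point per gene, with single forms coloured by complex and L forms as triangles. In the 10 inputs of the w1118 and eGFP-ME31B series the medians of the single forms lie between 26.0 and 253 FPKM, and the L forms lie at or near 0 with a few triangles between 1 and 5 FPKM in the older embryos.

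The L forms were nearly silent. Per library, 0 to 7 of 16 reached 0.5 FPKM and 7 to 16 were listed at 0, and the highest value of any L form in any library was 7.47 FPKM (ATPsynepsilonL, w1118 3-4 hr immunoprecipitate). ATPsynCF6L, ND-24L and ND-B14.5AL were listed at 0 in all 28 libraries, where the single form ATPsynCF6, a peripheral stalk subunit, was never under 72.5 FPKM. A value above 0.5 FPKM in some embryo inputs was found for ATPsynepsilonL, COX4L, COX7AL, COX5BL, ND-51L1, ND-51L2, ATPsynbetaL and UQCR-11L.

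COX7AL reached 0.286, 0, 1.95, 3.91 and 2.00 FPKM from 0-1 to 4-5 hr in w1118 inputs and 0.219, 0, 0.816, 1.51 and 3.25 FPKM in eGFP-ME31B inputs. COX4L reached 0, 0, 0.884, 1.60 and 2.34 FPKM in w1118 inputs and 0.178, 0, 0.167, 1.04 and 2.57 FPKM in eGFP-ME31B inputs. ATPsynepsilonL reached 0, 0, 1.09, 4.97 and 3.71 FPKM in w1118 inputs and 0.735, 0.703, 0.343, 2.54 and 4.27 FPKM in eGFP-ME31B inputs. These 3 were highest from 3-4 hr on in eGFP-ME31B embryos and from 2-3 hr on in w1118 embryos. COX7AL and COX4L stayed far below their single forms, of which COX7A was never under 22.9 FPKM and COX4 never under 32.7 FPKM. For ATPsynepsilonL the name rule found no single form of the same name to set beside it.

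ND-51L1 reached 0, 0.120, 1.87, 2.31 and 1.04 FPKM in w1118 inputs and 0.0833, 0.119, 0.853, 1.43 and 1.36 FPKM in eGFP-ME31B inputs, but it overlaps Smurf on the same strand. ND-51L2 overlaps Trpm, UQCR-11L overlaps Acsl, COX6AL overlaps Cyp4aa1 and ATPsynCF6L overlaps Con, and their highest values were 0.90, 1.58, 0.26 and 0 FPKM. The remaining L forms were ATPsynbetaL, ATPsynGL, COX5BL, ND-20L, ND-49L and UQCR-14L, whose highest values in any library were 0.57, 0.21, 1.19, 0.17, 0.05 and 0.23 FPKM, while the single forms COX5B and ND-20 were never under 47.0 and 21.7 FPKM. The testis markers Mst84Da, Mst87F, dj, can, sa and betaTub85D were at or near 0 throughout, and bam, which also acts in the female germline, accounted for most of the marker sum (14.8 FPKM in the w1118 and 83.9 FPKM in the eGFP-ME31B input at 0-1 hr). No testis sample was measured, so a testis level of the L forms is not given here. All results that follow are on the single forms, since no L form passed the filter for binding.

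Input levels were compared between ages as log2 ratios, over genes with at least 0.5 FPKM in at least 1 input of the series, and given relative to the median gene of the library pair. Before this step the median gene itself moved by -1.31, 1.34, 1.65 and 1.45 at 1-2, 2-3, 3-4 and 4-5 hr against 0-1 hr in w1118 embryos, by less than 0.1 at each age in eGFP-ME31B embryos and by -0.04 at 2-3 hr in png50 embryos. A gene is called here when it lay at least 2-fold from the median gene, a log2 value of 1 or -1. In bulk embryos, fewer cells of a type and less RNA per cell cannot be told apart.

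Most respiratory chain mRNAs stayed within 2-fold of the median gene across the maternal-to-zygotic transition, although in w1118 embryos their place relative to that gene depended on how low genes were treated. At 2-3 hr against 0-1 hr in w1118 embryos the median single form lay at 0.63, and the sign turned when levels were scaled to the added worm RNA (-0.57). There 12 of 58 were called higher and 2 lower, beside 22.7% of all genes tested called higher and 28.0% called lower. In eGFP-ME31B embryos the median was 0.23 (-0.44 by worm RNA), with 4 of 58 called higher and 3 lower beside 17.4% and 14.9% of all genes. By 4-5 hr, when much of the maternal RNA has been replaced, the medians were 0.25 in w1118 and 0.16 in eGFP-ME31B embryos, which turned to -1.45 and -1.05 by worm RNA and to -0.63 and -0.53 against genes of up to 1000 nt.

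At that age 4 of 58 were called higher and 6 lower in w1118 embryos, beside 32.5% and 29.3% of all genes. In eGFP-ME31B embryos 5 were called higher and 7 lower, beside 30.8% and 24.9%. The share of single forms called was below the share of all genes in each of these 4 comparisons and both directions. In w1118 embryos this depended on the filter. Over the 6216 of 9747 genes above 0.5 FPKM in every input of the series, the w1118 medians were 0.92 at 2-3 hr and 0.83 at 4-5 hr. With that filter 25 of 57 were called higher and 2 lower at 2-3 hr, beside 20.3% and 27.0% of all genes, and 24 higher and 2 lower at 4-5 hr, beside 22.6% and 25.0%. In eGFP-ME31B embryos it gave medians of 0.32 and 0.53, with 3 called higher and 3 lower at 2-3 hr (7.21% and 15.4% of all genes) and 9 and 3 at 4-5 hr (21.0% and 23.0%).

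By complex, the medians at 2-3 hr in w1118 embryos were 0.58 for complex I, -0.24 for complex III, 0.93 for complex IV and 0.79 for ATP synthase, and in eGFP-ME31B embryos 0.20, -0.28, 0.25 and 0.39. Complex III had the lowest median in both strains, but over genes above 0.5 FPKM in every input its w1118 median was 0.06.

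**Figure D2:**
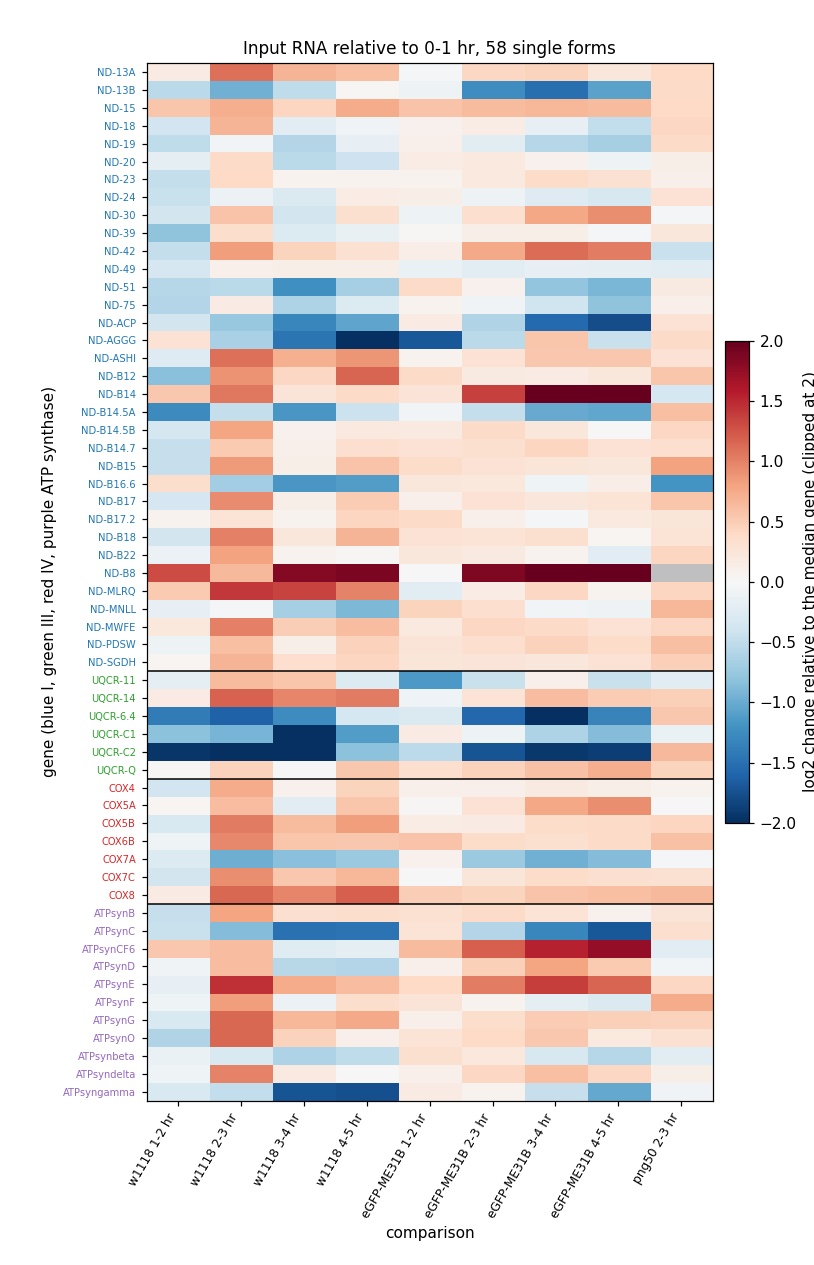
Input level of the 58 single forms at each age against 0-1 hr of the same strain, as log2 values relative to the median gene (red higher, blue lower, clipped at 2, grey where the filter was not passed), with gene names coloured by complex. UQCR-C2 and UQCR-6.4 are the deepest blue at 2-3 hr in w1118 (-2.04 and -1.61) and eGFP-ME31B embryos (-1.72 and -1.56) and pale red in png50 embryos (0.65 and 0.54).

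A pair of complex III genes were the lowest of all single forms at 2-3 hr in both strains. UQCR-C2, a core protein of complex III, measured 49.0, 5.04, 30.2, 35.7 and 75.7 FPKM from 0-1 to 4-5 hr in w1118 inputs and 238, 165, 75.6, 65.6 and 64.5 FPKM in eGFP-ME31B inputs. Relative to the median gene it fell by 2.04 (log2) in w1118 and by 1.72 in eGFP-ME31B embryos at 2-3 hr. At 4-5 hr it lay at -0.82 in w1118 and -1.89 in eGFP-ME31B embryos. UQCR-6.4, a small accessory subunit, measured 214, 32.8, 178, 280.1 and 456 FPKM in w1118 and 607, 497, 215, 157 and 242 FPKM in eGFP-ME31B inputs, and fell by 1.61 and 1.56 at 2-3 hr. At 4-5 hr UQCR-6.4 lay at -0.36 in w1118 and -1.33 in eGFP-ME31B embryos, but its side in w1118 embryos depended on the filter. Over genes above 0.5 FPKM in every input, UQCR-6.4 lay at 0.29 in w1118 and -0.94 in eGFP-ME31B embryos at that age. With the same filter UQCR-C2 lay at -0.18 and -1.49. Both genes were also the lowest at 1-2 hr in w1118 (-1.94 and -1.39) and at 3-4 hr in eGFP-ME31B embryos (-1.93 and -2.03), and at 3-4 hr in w1118 embryos UQCR-C2 (-2.11) was followed by UQCR-C1, the other core protein (-2.07). In png50 embryos, in which the clearance of maternal mRNA is known to fail, UQCR-C2 measured 105 and 160.3 FPKM at 0-1 and 2-3 hr, and UQCR-6.4 494 and 699 FPKM.

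At the other end were ATPsynE, a membrane subunit of ATP synthase, and ND-B14, an accessory subunit of complex I, the single forms called higher at 2-3 hr in both strains. ND-B14 measured 24.9, 14.5, 132, 93.8 and 88.3 FPKM in w1118 and 14.5, 17.3, 39.3, 62.9 and 67.4 FPKM in eGFP-ME31B inputs, and ATPsynE 97.8, 35.2, 681, 516 and 412 and 215, 283, 460.1, 591 and 488 FPKM. Relative to the median gene, the eGFP-ME31B level of ND-B14 differed from the w1118 level by -2.20 at 0-1 hr and -1.93 at 2-3 hr between tables that were quantified separately, and by worm RNA the sign turned (3.07 and 3.90). Worm genes held 0.404% and 0.762% of the FPKM in these eGFP-ME31B inputs and 16.5% and 24.0% in the w1118 inputs. The same scaling put the median single form at 5.52 and 5.65. ATPsynE changed by 1.45 in w1118 and 1.03 in eGFP-ME31B embryos at 2-3 hr, and ND-B14 in eGFP-ME31B embryos by 1.36, 2.03 and 2.1988 from 2-3 to 4-5 hr. ND-MLRQ was among the highest changes in w1118 embryos at 2-3 and 3-4 hr (1.42 and 1.36) but not at 2-3 hr in eGFP-ME31B embryos (0.15).

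Between the strains, the other highest and lowest single forms relative to the median gene are given here as eGFP-ME31B against w1118 values. By worm RNA all of them lay above 0, where the strain medians of the single forms were 5.52 to 6.27. UQCR-C2 was among the highest at 0-1, 1-2 and 2-3 hr (0.85, 2.1702 and 1.13), ND-B12, an accessory subunit of complex I, at 0-1 and 1-2 hr (0.81 and 1.92), UQCR-C1 at 2-3 and 3-4 hr (1.09 and 1.61), ATPsyngamma at 3-4 hr (1.40) and ND-B8 and ND-MNLL at 4-5 hr (1.34 and 0.98). Among the lowest were ATPsynCF6 at 0-1 and 2-3 hr (-1.80 and -1.25), ND-AGGG at 1-2 hr (-3.15), and UQCR-6.4 and ND-13B at 3-4 hr (-0.83 and -0.73) and 4-5 hr (-1.07 and -0.85). Complex III genes thus stood at both ends. The png50 input of the ME31B series against the eGFP-ME31B input at 0-1 hr was highest for ATPsynCF6 (1.26) and ND-B14 (1.22) and lowest for UQCR-11 (-1.25) and UQCR-C1 (-0.65).

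Later falls were found for ATPsynC, ATPsyngamma (the central rotor stalk) and ND-ACP (the mitochondrial acyl carrier protein), the 3 single forms called lower at 4-5 hr in both strains, a call that 0 single forms held in both strains over genes above 0.5 FPKM in every input (ATPsynC -0.83 and -1.29, ATPsyngamma -1.11 and -0.63, ND-ACP -0.42 and -1.38 in w1118 and eGFP-ME31B embryos). ATPsynC measured 687, 203, 959, 772 and 676 FPKM in w1118 and 2087, 2522, 1453, 892 and 652 FPKM in eGFP-ME31B inputs. ATPsyngamma measured 99.8, 32.4, 180.5, 94.5 and 80.4 and 325, 364, 359, 250.0 and 160.2 FPKM, and ND-ACP 146, 45.4, 218, 186 and 190.4 and 428, 476, 297, 154 and 125 FPKM. In eGFP-ME31B embryos the levels of all 3 were lowest at 4-5 hr. In w1118 embryos ATPsynC and ND-ACP ended near or above their 0-1 hr FPKM, and their fall was relative to the median gene. There the FPKM of the median gene rose, and summed fly FPKM was 302478 at 0-1 hr and 1160520 at 4-5 hr. The w1118 FPKM therefore do not show whether the levels of these mRNAs were kept. At 4-5 hr ND-AGGG (-2.02, at levels of at most 5.46 FPKM) and ATPsyngamma (-1.76) were lowest in w1118 embryos and UQCR-C2 and ND-ACP (-1.78) in eGFP-ME31B embryos. ND-B8 was listed at 0 at 0-1 and 1-2 hr in both strains, for which no fold is given, and reached 0.299, 1.02 and 0.906 FPKM in w1118 and 0.282, 1.5005 and 2.74 FPKM in eGFP-ME31B inputs. After it, COX8 was highest in w1118 embryos at 4-5 hr (1.20, and -0.50 by worm RNA). At 1-2 hr ND-15, an accessory subunit of complex I, was high in w1118 (0.56) and eGFP-ME31B embryos (0.58), as was ATPsynCF6 in eGFP-ME31B embryos (0.63), where ND-AGGG (-1.69) and UQCR-11 (-1.15) were lowest.

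From 2-3 hr on, most changes had the same sign in both strains. At 2-3 hr 39 of 58 single forms (67.2%) lay above the median gene in both strains and 11 (19.0%) below it in both, where 39.9% and 39.0% of 8766 genes did so. At that age 2 single forms (3.45%) were called higher in both (ATPsynE and ND-B14) and 2 lower in both (UQCR-C2 and UQCR-6.4), less than the 11.6% and 12.7% of all genes, and 0 were called in opposite directions. Over genes above 0.5 FPKM in every input the same genes were called in both strains, beside 2.99% and 13.7% of all genes. At 1-2 hr 18 of 58 lay on the same side in both strains, with a rank correlation of 0.17 (0.36 over 8766 genes). Of these, 11 lay above the median gene and 7 below it, beside 28.5% and 34.5% of all genes. This count depended on the filter. Over genes above 0.5 FPKM in every input, 23 of 57 lay above it in both strains and 6 below it, beside 30.9% and 31.3% of all genes. The rank correlation of the changes over the 58 genes was 0.65 at 2-3 hr and 0.68 at 4-5 hr, and 0.73 and 0.82 over 8766 genes, as a description over genes that share their length between the strains, from libraries of which none is shared.

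In png50 embryos the single forms hardly moved. At 2-3 hr against 0-1 hr, 0 of 57 were called higher and 1 lower, ND-B16.6, a complex I subunit at 34.0 and 14.3 FPKM, beside 3.16% and 2.65% of all genes (-1.20). The next lowest was ND-42 (-0.45). Their median was 0.32 (-0.41 by worm RNA), close to the 0.27 of all genes of up to 1000 nt. The highest were ND-B15 (0.80) and ATPsynF (0.74). No other age of png50 embryos was measured.

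A binding value here is the FPKM of a gene in the immunoprecipitate divided by that in its input, as a log2 value relative to the median gene, for genes above 0.5 FPKM in each library of their series. In the embryo series 57 of 58 single forms passed (not ND-B8) and in S2 cells 56 (not ND-B8 or ND-AGGG). Before centring, the median gene lay at 1.34, 2.74, -1.54, -0.63 and -0.31 for PABP and at 0.14, 0.05, 0.19, 0.36 and 0.28 for ME31B from 0-1 to 4-5 hr, at -0.47 and -0.10 in S2 cells and at 0.32 in png50 embryos. Length moves with these ratios. The single forms are short, with a median mature length of 794.5 nt and 41 of 58 at up to 1000 nt, against a median of 1986 nt over the genes tested for PABP, and over all genes the rank correlation of binding with length was -0.39 for PABP at 0-1 hr, -0.53 for PABP and 0.61 for ME31B in S2 cells and -0.57 for ME31B at 0-1 hr. Each median below is therefore set beside the median of all genes of up to 1000 nt, and the part of length in the differences was not tested.

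PABP binding of the respiratory chain mRNAs was above the median gene at every age, a sign that turned at 2-3 and 3-4 hr without centring (-0.87 and -0.12) and at the first, middle and last age relative to short genes (-0.19, -0.01 and -0.19). From 0-1 to 4-5 hr the medians of 57 single forms were 0.27, 0.89, 0.67, 0.52 and 0.15, beside 0.46, 0.72, 0.67, 0.52 and 0.34 for short genes, and in S2 cells the median was 1.07 beside 0.83. Called higher were 4, 24, 19, 15 and 7 of 57 from 0-1 to 4-5 hr and 30 of 56 in S2 cells. Of all genes tested, 10.4%, 14.2%, 17.0%, 11.7% and 11.7% were called higher in embryos and 15.8% in S2 cells, so that the count of single forms lay near or under this background at 0-1 and 4-5 hr and above it at the other ages and in S2 cells.

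Complex IV stood highest of the complexes throughout. Its 7 subunits had medians of 0.70, 1.31, 1.20, 0.94 and 0.74 in embryos and 1.79 in S2 cells, against 0.15, 0.89, 0.59, 0.37 and 0.03 and 0.95 for complex I, 0.15, 0.76, 0.94, 0.59 and 0.40 and 1.51 for complex III, and 0.11, 0.81, 0.51, 0.46 and 0.23 and 1.04 for ATP synthase. COX6B, a subunit on the intermembrane side, had PABP binding of 1.35, 1.93, 1.53, 1.30 and 1.01 from 0-1 to 4-5 hr and 2.24 in S2 cells. It overlaps CG18809 on the same strand. COX7A, a small membrane subunit, had input levels of 68.6, 22.9, 88.5, 121 and 112 FPKM and immunoprecipitate levels of 326, 377, 90.5, 256 and 273 FPKM, a binding of 0.91, 1.30, 1.57, 1.71 and 1.59. In S2 cells COX7A gave the highest PABP binding of all single forms, with 141 FPKM in the input and 939.7 FPKM in the immunoprecipitate (3.21).

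Other high members belonged to ATP synthase and complex I. ATPsynE measured 535, 1443, 627, 1059 and 776 FPKM in the PABP immunoprecipitates, a binding of 1.12, 2.62, 1.42, 1.67 and 1.22, and ATPsynCF6, a peripheral stalk subunit, had 1.10, 0.48, 2.11, 1.91 and 1.22. Both were called higher at 0-1, 2-3, 3-4 and 4-5 hr and in S2 cells, and ATPsynE at 1-2 hr too. ND-MNLL, a short accessory subunit of complex I, was called higher at all 5 ages (1.02, 1.19, 1.89, 1.30 and 1.68) and in S2 cells (2.67), but overlaps CG45089. ND-B16.6 was close to ATPsynCF6 at 2-3 hr (1.95).

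The 4 members that were low at all 5 ages were longer mRNAs, and include a catalytic and a core subunit. ATPsynbeta, ND-42, ND-49 and ND-51 have mature lengths of 2048, 1618, 1584 and 1590 nt, and the high members COX6B, COX7A, ATPsynE, ATPsynCF6 and ND-MNLL 740, 621, 664, 616 and 649 nt. ATPsynbeta, the catalytic subunit of ATP synthase, measured 302, 111, 618, 619 and 579.8 FPKM in the inputs and 330.0, 479, 85.5, 98.9 and 133 FPKM in the PABP immunoprecipitates, a binding of -1.21, -0.63, -1.32, -2.01 and -1.81, and -1.39 in S2 cells. It lay below the median gene in each of these, and as deposited its values at 0-1 and 1-2 hr were 0.13 and 2.10. ND-51, the subunit that oxidises NADH, was the lowest single form at 0-1 hr, with 50.7 FPKM in the input and 28.3 FPKM in the immunoprecipitate, and its binding went -2.18, -0.77, -1.08, -0.43 and -0.46 over the ages. ND-49, a core subunit near the quinone site, had -0.31, -0.52, -1.26, -1.23 and -0.66 in embryos and -0.94 in S2 cells, and ND-42, an accessory subunit, -1.06, -0.68, -1.11, -0.64 and -0.55. The lowest single form at 1-2 hr was ND-AGGG (-0.90), an accessory subunit whose mRNA of 745 nt is short, and after ATPsynbeta the lowest at 4-5 hr was ND-39, an accessory subunit of complex I (-0.76).

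These sides were kept over time. Of 57 single forms, 32 lay above the median gene at all 5 ages and 4 below it at all 5 (ATPsynbeta, ND-42, ND-49 and ND-51), while of 6086 genes tested 23.8% lay above and 23.3% below it throughout. The same 32 lay above it in S2 cells too, against 18.4% of 5817 genes, and of the 4 low ones ATPsynbeta and ND-49 lay below it there, against 19.0%, while ND-42 and ND-51 did not. Over the single forms the rank correlation of PABP binding with mature length was -0.45 at 0-1 hr and -0.63 in S2 cells. The rank correlation of PABP binding between S2 cells and embryos at 2-3 hr was 0.78 over 56 single forms and 0.50 over 5817 genes.

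**Figure D3:**
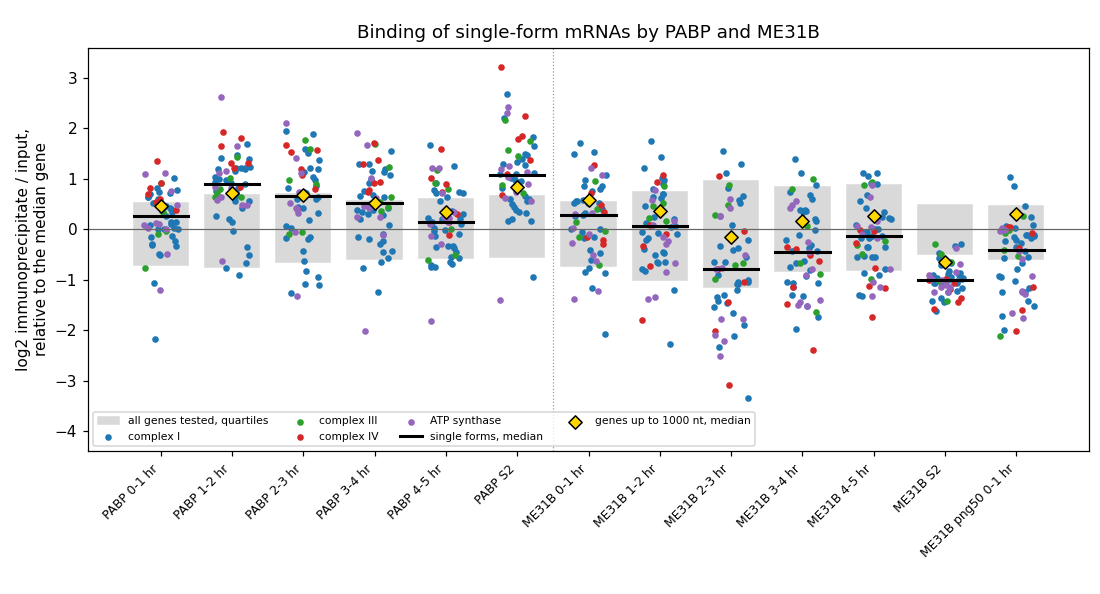
Binding of the single forms by PABP (left) and ME31B (right), as log2 immunoprecipitate over input relative to the median gene, 1 point per gene coloured by complex, with the median of the single forms as a black bar, the quartiles of all genes tested as a grey box and the median of genes up to 1000 nt as a diamond. The black bars run from 0.28 to -0.79 for ME31B between 0-1 and 2-3 hr, while for PABP they stay above 0.

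Relative to the median gene, ME31B binding of the same mRNAs was slightly above 0 at 0-1 hr and below 0 from 2-3 hr on, whereas relative to short genes it was below 0 at every age (-0.31 at 0-1 hr) and relative to the single gene Act5C above 0 at every age (1.09, 1.38, 1.01, 0.59 and 0.94). The medians of 57 single forms were 0.28, 0.06, -0.79, -0.45 and -0.14 from 0-1 to 4-5 hr, beside 0.59, 0.36, -0.15, 0.17 and 0.27 for short genes. Called higher at 0-1 hr were 7 of 57, beside 8.39% of all genes, and at 2-3 hr 4 of 57 (COX7A, ND-13B, ND-ACP and ND-B16.6), beside 23.9%. Called lower were 4, 5, 25, 17 and 8 of 57 from 0-1 to 4-5 hr. Of all genes tested 18.9%, 24.9%, 28.0%, 20.6% and 20.1% were called lower, so that the single forms lay under this background at 0-1, 1-2 and 4-5 hr and above it at 2-3 and 3-4 hr.

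The course over time was shared by most members. ME31B binding was lower at 2-3 hr than at 0-1 hr for 43 of 57 single forms, against 42.5% of 6699 genes, and higher at 4-5 hr than at 2-3 hr for 46 of 57, against 57.6% of all genes. At 2-3 hr the medians were -0.90 for complex I, -0.19 for complex III, -1.04 for complex IV and -0.79 for ATP synthase, and complex III was thus the complex nearest to the median gene. COX8 measured 627, 881, 897, 979.7 and 959.8 FPKM in the inputs and 594, 262, 120.5, 239.5 and 348 FPKM in the ME31B immunoprecipitates, a binding of -0.22, -1.80, -3.09, -2.39 and -1.75. Its input was nearly level from 1-2 hr on while the immunoprecipitate had its minimum at 2-3 hr, and its PABP binding over the same ages was 0.60, 1.64, 1.68, 1.36 and 0.90.

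ND-42 was the lowest single form for ME31B at 1-2 hr (-2.27) and gave the lowest value of any, -3.34 at 2-3 hr, with 97.4, 107, 174, 223 and 199.8 FPKM in the inputs and 48.1, 23.1, 19.6, 100.1 and 165 FPKM in the immunoprecipitates. Its binding was -0.55 at 4-5 hr, the largest difference upward of any single form between these ages. ATPsynCF6 differed the most downward between 0-1 and 2-3 hr, from 1.21 to -1.77, and stayed called lower at 3-4 and 4-5 hr (-1.33 at the last). ND-MLRQ (-0.61, -0.67, -2.33, -1.97 and -1.32), ATPsynO, a peripheral stalk subunit (-0.62, -1.38, -2.51, -1.41 and -0.78), ATPsynG (-0.50, -0.85, -2.20, -1.43 and -1.05) and COX7C (-0.30, -0.72, -2.02, -1.49 and -1.11) followed the same course. Below the median gene at all 5 ages were 12 single forms, these 4 with COX8, ND-42, ATPsynB, COX4, ND-13A, ND-39, ND-ASHI and ND-MWFE.

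Against this course, 8 single forms lay above the median gene at all 5 ages, ATPsynC, ND-13B, ND-18, ND-19, ND-24, ND-ACP, UQCR-C1 and UQCR-C2, where 28.4% of all genes lay on each side throughout. ND-13B, an accessory subunit of complex I, measured 177, 165, 78.2, 65.6 and 84.4 FPKM in the inputs and 563, 579, 263, 182 and 164 FPKM in the immunoprecipitates, a binding of 1.53, 1.75, 1.56, 1.11 and 0.68. The immunoprecipitate exceeded the input at every age. ND-ACP had 0.79, 1.21, 1.29, 1.39 and 1.12 and UQCR-C2 0.41, 0.87, 0.87, 0.99 and 0.88. ND-B16.6 began highest of all at 0-1 hr (1.71, 1.43, 1.10, 0.34 and -0.53) but ended below the median gene, and with the w1118 input as divisor its 1-2 hr value was -0.59.

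A pair of catalytic subunits took the opposite course. ATPsynbeta measured 961, 1198, 1165, 816 and 653 FPKM in the eGFP-ME31B inputs and 408, 1119, 1777, 1409 and 887 FPKM in the immunoprecipitates, so that its ME31B binding went -1.38, -0.15, 0.42, 0.43 and 0.16. ND-51 measured 129, 168, 145, 78.8 and 69.2 FPKM and 33.9, 98.8, 236, 154 and 88.6 FPKM, a course of -2.07, -0.82, 0.51, 0.61 and 0.08. Both were the lowest single forms of all at 0-1 hr for PABP and for ME31B alike, and both were above the median gene for ME31B from 2-3 hr on while remaining below it for PABP. With the difference of PABP and ME31B binding at 2-3 hr they were the 2 lowest single forms (-1.79 and -1.65), and COX8 (4.71) and ATPsynCF6 (3.83) the 2 highest. The median of this difference over the single forms was 0.10, 0.60, 1.31, 0.93 and 0.22 from 0-1 to 4-5 hr, from strains and tables that differ for the 2 proteins.

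**Figure D4:**
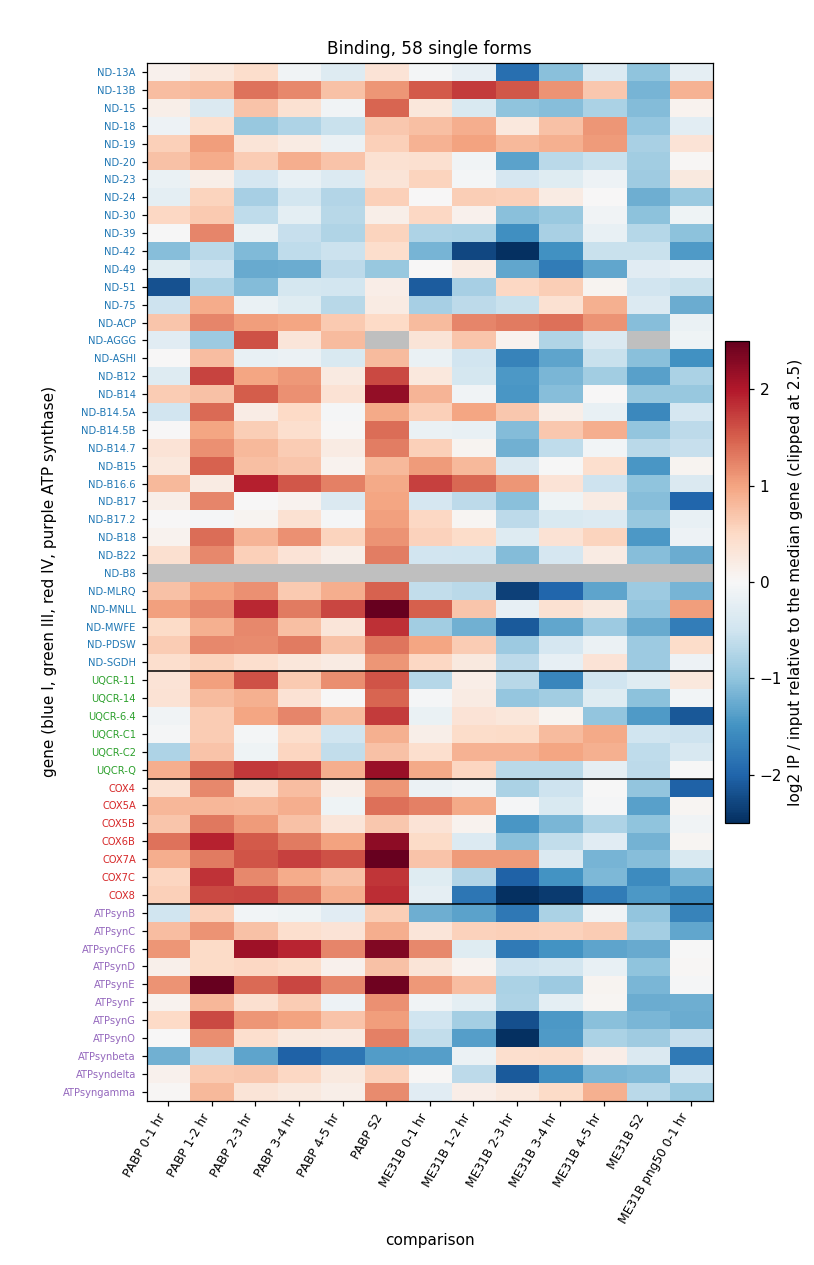
Binding of each single form by PABP and ME31B, as log2 immunoprecipitate over input relative to the median gene (red higher, blue lower, clipped at 2.5, grey where the filter was not passed). COX8 and ND-42 are the deepest blue for ME31B at 2-3 hr (-3.09 and -3.34), ND-13B and ND-ACP stay red there (1.56 and 1.29), and ATPsynbeta is blue in every PABP column.

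In S2 cells ME31B binding was low for every single form. The median was -0.999, beside -0.66 for short genes, and the sign was the same under each zero point tried (at most -0.34). Of 56, 0 lay above the median gene and 27 were called lower, beside 7.80% of all genes. The range was narrow, from -1.61 for ND-B14.5A and -1.58 for COX7C to -0.30 for UQCR-11 and -0.29 for ND-49. ND-13B, high in embryos, was called lower here with 90.7 FPKM in the input and 37.8 FPKM in the immunoprecipitate (-1.17). The rank correlation of ME31B binding between S2 cells and embryos was -0.23 at 0-1 hr and 0.08 at 2-3 hr over 56 single forms. Over 6184 genes it was -0.48 and -0.14. Within the single forms ME31B binding in S2 cells was higher for longer mRNAs (rank correlation 0.53), as over all genes.

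The S2 inputs held the same genes at other levels. ATPsyngamma measured 523 FPKM in untransfected and 589 FPKM in transfected S2 cells, and 32.4 to 180.5 FPKM over the w1118 inputs of the same table, where it was the highest single form of S2 cells relative to embryos at 0-1, 3-4 and 4-5 hr (2.02, 3.41 and 3.47). UQCR-11 measured 67.6 FPKM in S2 cells and 207, 72.4, 815, 954 and 468 FPKM in w1118 inputs, and ND-MLRQ 226 FPKM against 309, 178, 2096, 2488 and 1685 FPKM. UQCR-C2 was the highest at 1-2 and 2-3 hr (2.42 and 2.2001), ahead of ATPsyngamma (2.18 and 2.05), and COX6B (0.99), UQCR-C1 (2.53) and ND-B16.6 (1.73) came second at 0-1, 3-4 and 4-5 hr. UQCR-11 was at the low end from 0-1 to 3-4 hr (-1.98, -1.93, -3.08 and -2.87), with ND-AGGG below it at 0-1 and 1-2 hr (-2.89 and -3.33), ND-MLRQ low at 2-3 and 4-5 hr (-2.70 and -2.13) and ND-B8 listed at 0 in both S2 inputs. The median single form of S2 cells lay at 0.08, -0.96 and -0.49 relative to the w1118 inputs of the first, middle and last age.

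In png50 embryos ME31B binding of the respiratory chain mRNAs at 0-1 hr lay lower relative to the median gene than in eGFP-ME31B embryos, an order that turned relative to Act5C (1.84 against 1.09). The median was -0.40 against 0.28. Of 57 single forms 17 were called lower, beside 14.8% of all genes. In all, 54 of 57 lay lower than in eGFP-ME31B embryos, with a median difference of -0.67. Short genes also lay lower, with a median difference of -0.36, and the share of all genes that lay lower is not given here. The order of the genes was kept in part (rank correlation 0.70 over 57 single forms). COX4, the subunit IV of cytochrome c oxidase, measured 242 FPKM in the png50 input and 74.5 FPKM in the immunoprecipitate (-2.02), against 345 and 342 FPKM in eGFP-ME31B embryos (-0.15).

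UQCR-6.4 was the lowest of all in png50 embryos, with 748 FPKM in the input and 216 FPKM in the immunoprecipitate (-2.12). ND-51 was an exception on the upper side, at -0.55 in png50 and -2.07 in eGFP-ME31B embryos. The 2 highest in png50 embryos were ND-MNLL (1.04) and ND-13B (0.87). ND-B16.6, the highest in eGFP-ME31B embryos (1.71), lay at -0.35 in png50 embryos, the largest difference downward of any single form (-2.07).

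ME31B binding at 2-3 hr and the input change of the other strain ran in opposite directions over the single forms. ME31B binding at 2-3 hr in eGFP-ME31B embryos was compared with the input change from 0-1 to 2-3 hr in w1118 embryos. Across 57 single forms the rank correlation was -0.78, with the same sign as the -0.67 over 6643 genes. The measures share no library, but binding has the eGFP-ME31B input of 2-3 hr as its divisor. The input changes of the strains at that age had a rank correlation of 0.65 over 58 single forms. The part of this divisor in the negative correlation was not tested. In all, 2 of 57 lay on the same side of the median gene in both measures (3 of 57 where the input change was taken over genes above 0.5 FPKM in every input, with the same correlation of -0.78). The share of all genes on the same side is not given here, so the count cannot be read as particular to the single forms. With ME31B binding at 0-1, 1-2, 3-4 and 4-5 hr in place of 2-3 hr the correlation was -0.25, -0.56, -0.66 and -0.35, and with PABP binding at 2-3 hr in w1118 against the eGFP-ME31B input change it was 0.22. UQCR-C2, ND-13B, COX7A and ND-ACP lay at 1 end, with ME31B binding of 0.87, 1.56, 1.06 and 1.29 and input changes of -2.04, -0.97, -0.98 and -0.76. COX8, ATPsynO and ND-MLRQ lay at the other, with binding of -3.09, -2.51 and -2.33 and input changes of 1.15, 1.14 and 1.42. New transcription and decay of the maternal copy both enter an input change and cannot be told apart in these libraries.

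**Figure D5:**
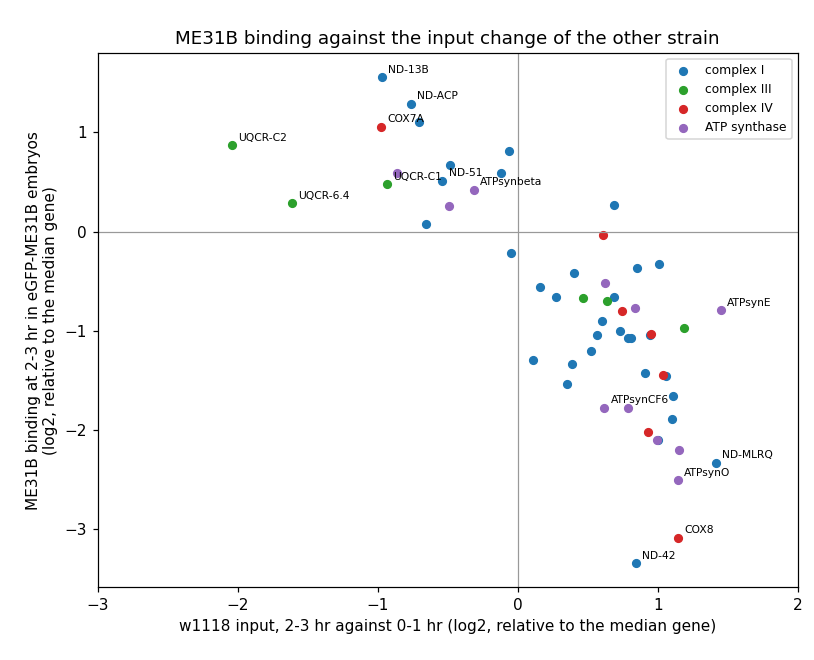
ME31B binding at 2-3 hr in eGFP-ME31B embryos (vertical) against the input change from 0-1 to 2-3 hr in w1118 embryos (horizontal), both log2 relative to the median gene, 1 point per single form coloured by complex. The points run from UQCR-C2 at the upper left (-2.04, 0.87) to COX8 at the lower right (1.15, -3.09), and 2 of 57 lie in the upper right or lower left quadrant.

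Genes of the pathway that the name rule leaves out were described from lists of their own. Of 16 subunits under other names, 12 passed the filter, and at 2-3 hr their median ME31B binding was -0.86, with 5 of 12 called lower, beside 28.0% of all genes. These 5 were cype (a complex IV subunit, -2.88), Cyt-c1 (the cytochrome of complex III, -2.40), ox (a small complex III subunit, -2.15), Cyt-c-p (cytochrome c, -2.10) and sun (the epsilon subunit of ATP synthase, -1.26). Their PABP binding at 2-3 hr was 2.04, -0.59, 1.84, 1.39 and 1.38. The other 7 that passed, blw, levy, RFeSP, SdhA, SdhB, SdhC and SdhD, had ME31B binding from -0.87 to 0.43. The testis-type genes Cyt-c-d, Cyt-c1L, SdhAL and SdhBL did not pass.

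Of 7 genes for carriers and import, 6 passed. For ME31B at 2-3 hr sesB, the ADP/ATP translocase (-2.30), and Tim17b (-1.93) were called lower and Tim23 (2.43) higher. Of all genes tested, 28.0% were called lower and 23.9% higher. Tom20 (-0.09), Tom40 (0.94) and porin (-0.01) lay within 2-fold, and Ant2 did not pass. Of 10 genes for the mitochondrial genome and its regulators, 3 were called higher and 3 lower, near the 23.9% and 28.0% of all genes. The higher were mtSSB, which binds single-stranded mitochondrial DNA (2.18), and the transcriptional regulators Ets97D (2.11) and srl (1.17). Their inputs changed by -2.42, -3.15 and -2.81 in w1118 and by -1.20, -1.16 and -1.31 in eGFP-ME31B embryos. The lower were mtTFB2 (-3.26), tam (-1.33) and mtRNApol (-1.02). Their products are a mitochondrial transcription factor, the mitochondrial DNA polymerase and the mitochondrial RNA polymerase. The inputs of mtTFB2, tam and mtRNApol changed by -0.65, -1.21 and -1.10 in w1118 and by 0.16, -0.061 and -0.74 in eGFP-ME31B embryos. Binding of TFAM, bsf, ewg and mtTFB1 lay between -1 and 1. Of 4 genes for translation or quality control at mitochondria, park was called higher (1.47), Pink1 lower (-1.92), and larp and clu had -0.88 and -0.38. These calls stand beside the same 23.9% and 28.0% of all genes.

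Lists outside the pathway set these values in scale. At 2-3 hr the median PABP binding was 2.09 over the cytosolic ribosomal protein genes, 0.11 over the mitochondrial ribosomal protein genes and -0.92 over the proteasome genes, and the median ME31B binding -1.53, 0.43 and -0.31. At 0-1 hr the median ME31B binding was -0.34, 0.90 and 0.24. The single forms lay between the cytosolic ribosomal protein genes and the proteasome genes in the PABP values at 2-3 hr. The subunits encoded by the mitochondrial genome were not analysed here, as 0 of them are listed.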

How the data were processed

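RNA of inputs and immunoprecipitates was depleted of rRNA and sequenced as strand-specific libraries. Per the labels and the study's methods, the authors used bcl2fastq 2.17, FastQC 0.11.5, STAR 2.5.2a, Cufflinks 2.2.1 and R 3.1.2 with the dm6 and ce10 genomes, and deposited FPKM per gene in 3 tables, whose values were used as they stand. C. elegans RNA had been added to the samples, and worm genes made up 0.404% to 42.1% of the FPKM in 24 libraries and at most 0.00446% in the other 4, so that scaling to the worm RNA was tried as an alternative where possible. The replicates of the study beyond the 28 libraries were not analysed here, and 0 columns of per-sample values were left unused.

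All 28 libraries were used, 1 per group, so no test was run and no library could be left out. Immunoprecipitate FPKM was divided by input FPKM on the log2 scale for genes that exceeded 0.5 FPKM in each library of a series. Input changes were log2 ratios of FPKM plus a pseudocount of 0.1 over genes with at least 0.5 FPKM in 1 or more inputs, and the pseudocount understates changes of low genes. Both were centred on the median gene, and a gene was called at 2-fold or more from it. Correlations are Spearman's over genes, which are not independent replicates, and 42 between measures were computed. The single forms and lists were chosen with earlier results of these data known. Named were, by rule, the 2 most abundant single forms per complex, the 2 highest and 2 lowest per input change, level and binding comparison (ND-B8 by FPKM where a library lists it at 0, and differences between binding values only in part), every L form with its single form and every gene of the pathway lists outside the rule. Other genes, such as those on 1 side at all 5 ages or called in both strains, were named after their values were seen.

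Symbols were matched to Ensembl's BDGP6.54 annotation (release 115) for lengths and overlaps, through RefSeq synonyms where older (74 of 74 members, and 16700 or 99.0% of the genes of the w1118 table). Depth was estimated from the smallest FPKM steps of genes of at least 1500 nt with 1 transcript, assuming fragments of 200 nt. As only 35.4% to 66.7% of low values came out whole within 0.1 read, no read counts or count test were used, and depth is an estimate. Alternatives were other filters and pseudocounts, other zero points (none, Act5C, genes of up to 1000 nt, worm RNA, summed fly FPKM), division by the input of the other strain, and all 74 members in place of the single forms. The steps were checked on simulated data with known shifts. Input changes returned the shift given closely only over genes above 0.5 FPKM in every input with no pseudocount, and these choices together were added as a setting after the data were seen. Promoter and protein sequences were not used here. The software was pandas 2.3.3 and numpy 2.4.6 under Python 3.11.15, with figures by matplotlib 3.10.9.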

Additional observations from a re-analysis of the deposited data

Results flagged for a closer look

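A pair of complex III genes moved in opposite directions from 0-1 to 2-3 hr in w1118 and png50 embryos, relative to the median gene of each input pair. UQCR-6.4 lay at -1.61 in w1118 and 0.54 in png50 embryos, and UQCR-C2 at -2.04 in w1118 and 0.65 in png50 embryos. In eGFP-ME31B embryos they lay at -1.56 and -1.72. With 1 library per age and strain the difference between strains was not tested, and these 2 genes were singled out after their values were seen.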

How the results depend on the processing

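Of 305 recomputed medians of the single forms, 243 moved by less than 1.5-fold (0.58 on the log2 scale), and of 254 recomputed counts of calls 143 stayed within 1.5 times the reported count. Without the filter on low values (pseudocount 0.1 FPKM), the medians of PABP binding were 1.55, 2.91, -0.59 and -0.11 at 0-1, 1-2, 2-3 and 3-4 hr, and ATPsynbeta stood at 0.13 at 0-1 hr. As deposited, without centring, they were 1.61, 3.62, -0.87 and -0.12, again with ATPsynbeta at 0.13. The input medians of w1118 embryos were then -1.61, 1.97, 1.73 and 1.69 at 1-2, 2-3, 3-4 and 4-5 hr, and the medians of eGFP-ME31B against w1118 inputs 1.68 and 3.44 at 0-1 and 1-2 hr, with ND-B8 at 0.00 at 1-2 hr in both comparisons. With Act5C as zero point the PABP medians were 1.10, 1.84, 1.82, 1.24 and 0.93, the ME31B medians 1.09, 1.38, 1.01, 0.59 and 0.94, the png50 ME31B median 1.84 (UQCR-6.4 0.13, COX4 0.23) and the w1118 input median at 2-3 hr 0.0032. Relative to genes of up to 1000 nt, PABP binding was 0.17 and -0.0078 at 1-2 and 2-3 hr and 0.24 in S2 cells, ME31B binding -0.31 at 0-1 hr and -0.34 in S2 cells, and the input medians -1.13, -0.55 and -0.63 at 1-2, 3-4 and 4-5 hr in w1118 and -0.53 at 4-5 hr in eGFP-ME31B embryos.

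When binding was divided by the input of the other strain, the median at 2-3 hr was 1.34 for PABP and -1.41 for ME31B, and ND-B16.6 at 1-2 hr was -0.59 for ME31B. Without a filter, the w1118 input medians were -1.61, 1.64, 1.01 and 1.01 (ND-B8 0.00 at 1-2 hr), the strain medians 1.45 and 2.74 at 0-1 and 1-2 hr, and the S2 medians against w1118 inputs 1.39, -1.14 and -1.26 at 1-2, 3-4 and 4-5 hr. Scaled to worm RNA, the input medians were -1.06, -0.57, -0.56 and -1.45 in w1118 embryos (COX8 -0.50 at 4-5 hr), -0.44 and -1.05 at 2-3 and 4-5 hr in eGFP-ME31B embryos and -0.41 in png50 embryos. By the same scaling the strain medians were 5.52, 6.27, 5.65, 5.71 and 5.78 from 0-1 to 4-5 hr, with ND-B14 at 3.07 and 3.90 and ATPsynCF6 at 3.47 and 4.58 (0-1 and 2-3 hr), ND-AGGG at 2.51 and ND-B8 at 2.83 (1-2 hr) and UQCR-6.4 at 4.85 (4-5 hr). With a pseudocount of 1 FPKM the w1118 input medians at 2-3 and 3-4 hr were 1.22 and 0.67, and ND-B8 at 3-4 hr was -0.025. With above 0.5 FPKM in every input they were 0.67 and 0.83 at 3-4 and 4-5 hr. Each of these settings moves the zero point of the medians or the genes it is taken over, except the other divisor, and for single genes the cause was not tested. Leaving out the pseudocount as well as genes at or under 0.5 FPKM in any input, a setting chosen after the data were seen, gave w1118 input medians of 0.91, 0.66 and 0.83 at 2-3, 3-4 and 4-5 hr, close to the 0.92, 0.67 and 0.83 of the filter alone.

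Counts of calls moved with the filter and pseudocount as well as with the zero point. Called higher for PABP were 4 (0 to 50 over the alternatives), 24 (3 to 58), 19 (0 to 46), 15 (4 to 39) and 7 (2 to 26) from 0-1 to 4-5 hr and 30 (8 to 39) in S2 cells. Called lower for ME31B were 4 (1 to 13), 5 (0 to 13), 25 (2 to 38), 17 (1 to 20) and 8 (0 to 14), 27 (0 to 38) in S2 cells and 17 (0 to 21) in png50 embryos, and called higher 7 (1 to 30) at 0-1 hr and 4 (3 to 30) at 2-3 hr. Input counts of calls higher and lower were 12 (0 to 46) and 2 (0 to 18) at 2-3 hr and 4 (0 to 46) and 6 (0 to 49) at 4-5 hr in w1118 embryos, 4 (1 to 6) and 3 (3 to 9) at 2-3 hr and 5 (1 to 10) and 7 (3 to 31) at 4-5 hr in eGFP-ME31B embryos, and 0 (0 to 1) and 1 (1 to 3) in png50 embryos. With 1 library per group no replicate could be left out. No paired analysis was possible because each group holds 1 library. Low genes such as ND-B8, ND-AGGG and the L forms rest on few reads, and the depth of each is an estimate only.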
